A study of Oedaleus asiaticus with 9 samples.

Results

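The entries described here are the miR-1 and miR-133 microRNAs of *Oedaleus asiaticus* females, a grasshopper of Asian steppe. The 4 were taken by name from the deposited table: miR-1-x, miR-1-y, miR-1-z and miR-133-z, 4 of 365 listed miRNA entries. Small RNA was sequenced at 3 stages, with 3 libraries per stage and 9 in all: 3rd instar nymphs, 5th instar nymphs and adults, all female, all 3 days old (for adults, counted from emergence) and all fed normally without treatment. No strain, genotype or body part is given in the sources used here, and the tissue field of the labels repeats the stage. Whether the libraries of a stage came from separate or pooled animals is not stated, and a p-value here therefore reflects only how far these samples spread, possibly for technical reasons.

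miRNAs are short RNAs that bind messenger RNAs mainly through bases 2 to 8, the seed, and lower their output. miR-1 is a muscle miRNA of animals from flies to mammals. It is transcribed in muscle under the myogenic factors Mef2 and Twist in flies, and fly larvae that lack it have disordered muscle. miR-133 is the other conserved muscle miRNA, made from the same transcripts as miR-1 in mammals, where it limits serum response factor. In the migratory locust, miR-133 was also found to lower dopamine synthesis through the genes henna and pale.

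The 4 sequences are shown because they tell where the entries differ in sequence and which share a seed. They are written as DNA, 5′ to 3′, with the seed in capitals.
miR-1-y: tGGAATGTaaagaagtatggag
miR-1-z: tGGAATGTaaagaagtatggat
miR-1-x: cCGTACTTccttacttctcata
miR-133-z: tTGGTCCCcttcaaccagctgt
All 4 were 22 nt long, a length held by 89 of the 365 entries (24.4%). miR-1-y and miR-1-z shared their seed and 21 of 22 bases and differed by G22T, counted from the 5′ end of miR-1-y. The table held 4 sets of entries of equal length that differed in the last base alone, and in the set of miR-1 the less abundant form made up 1.31% of the more abundant one over all libraries. Whether miR-1-z is an RNA separate from miR-1-y was not tested. miR-1-x has another seed. When paired by computed hybridisation, miR-1-x and miR-1-y formed 17 base pairs with a free energy of -18.9 kcal/mol, the lowest of the 364 pairings of miR-1-y with another entry of the table. The median of the other pairings was -4.6 kcal/mol and the lowest of them was -13.1 kcal/mol. Pairing of this kind is what the arms of one miRNA hairpin show, but no genome was used here and the hairpin itself was not seen.

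Of the other entries of the table, 3 shared a seed with one of the 4, and they are shown to mark which reads could count towards the same targets.
miR-133-y: tTGGTCCCcttcaaccagctgtta
miR-206-y: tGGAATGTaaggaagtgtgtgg
predicted 3p entry: cCGTACTTgtctgctgct
miR-133-y holds the whole of miR-133-z, so reads of one could have been counted in the other, but it had only 0 to 3 counts per library. miR-206-y, named for the vertebrate muscle relative of miR-1, differed from miR-1-y by A11G, A17G, G20T and A21G and had 0 to 4 counts per library. The libraries without a count of miR-133-y or miR-206-y could still hold 0.565 CPM (3rd instar library 3, the deepest) to 1.31 CPM (5th instar library 3). Here 3 counts set the floor and counting error alone is covered. The predicted 3p entry, found by the authors' prediction and not named after a known family, is 18 nt long, shared the seed of miR-1-x and had 8 to 41 counts per library. Its normalised CPM averaged 8.07 ± 3.34, 6.22 ± 1.22 and 8.21 ± 2.80 in stage order (SD, n = 3 per stage), and its test over the stages gave an adjusted p of 0.716 (edgeR). Neither miR-133-y nor miR-206-y passed the filter on low counts, whereas all 4 miR-1 and miR-133 entries did.

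Total counts over the listed entries were 1462586 to 5309504 per library, and 1 predicted entry took 59.1% to 74.0% of them. Levels are therefore given as normalised CPM, counts scaled to the library total (CPM) and then by TMM factors of 0.854 to 1.17. These factors lay at 0.854 to 0.984 in 3rd instar libraries, at 1.03 to 1.17 in those of the 5th instar and at 0.881 to 1.16 in those of adults. Replicate libraries of a stage differed by more than sampling noise, with chi-square per degree of freedom of 67.2 or more in the 9 pairs. Of the 365 entries, 179 were tested.

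The 4 entries together held 0.744% to 1.73% of the counts of a library, and miR-1-y held nearly all of that. It made up 95.6% to 96.6% of their summed counts, miR-133-z 2.20% to 2.98%, miR-1-z 0.977% to 1.42% and miR-1-x 0.143% to 0.253%. The order was the same in 9 of 9 libraries, and since the entries are equally long it does not turn on length. miR-1-y was 32.1 to 43.8 times as high as miR-133-z on the normalised CPM scale. miR-133-z was 1.75 to 2.32 times as high as miR-1-z, and miR-1-z was 4.62 to 8.76 times as high as miR-1-x. These are ratios of read counts. Among the 291 known entries, miR-1-y ranked 5 to 7 in every library, miR-133-z 36 to 41, miR-1-z 45 to 51 and miR-1-x 78 to 107.

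miR-1-y, which shares the miR-1 seed with miR-1-z, was the most abundant of the 4 at every stage. Its normalised CPM was 10095, 11038 and 8318 in the 3rd instar, 9176, 10012 and 10120.4 in the 5th instar, and 16149.6, 11399.9 and 11900.2 in adults, for libraries 1 to 3 of each stage. The 3 adult libraries lay above all 6 nymphal libraries, while the nymphal stages overlapped. Adult library 1, the shallowest of the 9, was the highest. The means were 9817 ± 1381, 9769 ± 517 and 13149.9 ± 2609.8 CPM from the 3rd instar to the adult (SD, n = 3 each).

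The rare variant with the other last base, miR-1-z, had the least spread of the 4 among 5th instar and among adult libraries. Its normalised CPM was 131, 136.5 and 113.3 in the 3rd instar, 123.1, 124.9 and 123.2 in the 5th instar, and 163.4, 169.4 and 164.4 in adults. Again the adult libraries lay above all nymphal ones and the nymphal stages overlapped. The coefficient of variation was 9.56%, 0.822% and 1.93% from the 3rd instar to the adult, against 14.1%, 5.29% and 19.8% for miR-1-y. The values of miR-1-z rest on 254, 263 and 328 counts in the 5th instar and on 247, 545 and 757 in adults. In 5th instar library 1 the 254 counts gave 126.4 CPM of the library total, with an exact 95% Poisson interval of 111.3 to 142.9. That interval is wider than the range of the 5th instar values, so their closeness is not read as a trait of this form. With 3 libraries a stage each of these coefficients is itself loosely known.

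miR-133-z, the miR-133 entry, stood at 267.3, 251.8 and 259.2 normalised CPM in the 3rd instar, 215.6, 282.1 and 276.6 in the 5th instar, and 378.5, 304.9 and 289.8 in adults. Its adult libraries lay above the 6 nymphal ones, by a small gap over 5th instar library 2. The means were 259.4 ± 7.79, 258.1 ± 36.9 and 324.4 ± 47.5 CPM in stage order (SD, n = 3 each).

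miR-1-x, the entry that pairs with miR-1-y, was counted 29 to 129 times per library and is the least precisely measured of the 4. Its normalised CPM was 15.04, 17.5 and 14.8 in the 3rd instar, 14.1, 20.9 and 26.7 in the 5th instar, and 34.4, 23.6 and 28.02 in adults. Here the adult and 5th instar libraries overlapped, and adult and 3rd instar libraries did not. In 5th instar library 1 the 29 counts gave 14.4 CPM of the library total with an exact 95% Poisson interval of 9.66 to 20.7, and in adult library 3 the 129 counts gave 32.6 CPM with an interval of 27.2 to 38.8. Reads carry no molecular identifiers, so these intervals cover counting error only.

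**Figure D1:**
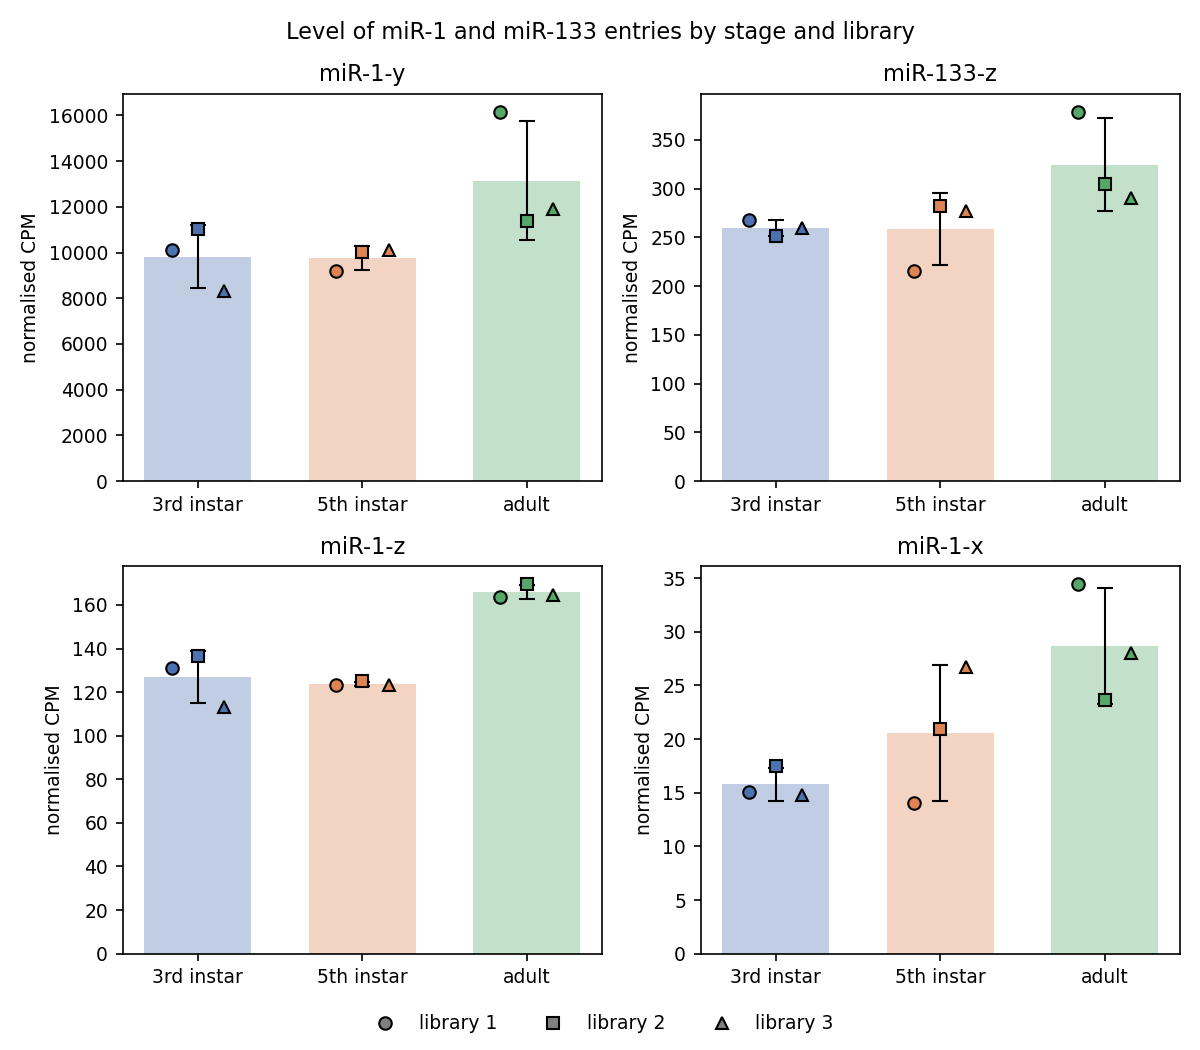
Normalised CPM (vertical axes, from 0) of miR-1-y, miR-133-z, miR-1-z and miR-1-x in the 3 stages. Points are libraries (circle, square and triangle for libraries 1, 2 and 3), bars are stage means and error bars are SD (n = 3). The 3 adult points lie above all 6 nymphal points for miR-1-y, miR-133-z and miR-1-z, and miR-1-x in adults overlaps the 5th instar.

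Adult libraries lay above all 6 nymphal libraries for 3 of the 4 entries, and for 9 of the 179 tested entries (5.03%), a description whose criterion was chosen after the values were seen. The 9 include these 3. The 4 entries belong to 2 families. Those of miR-1, given above as near identical or pairing sequences, are not separate cases. Counts out of 4, here and below, are therefore no measure of enrichment over the tested entries. The separation of adult from nymphal libraries depended on the scaling. As CPM of the library totals without factors, miR-1-y was at 10046 in adult library 2 and 11801 in 5th instar library 3, and miR-133-z was at 268.7 and 322.5 in the same libraries, so both overlapped. miR-1-z remained apart, at 149.3 to 191.4 CPM in adults, against 96.8 to 143.7 in the nymphs. On that scale 5 of the 179 tested entries (2.79%) had all adult libraries above all nymphal ones. In whole-body or mixed tissue, more muscle cells and more miRNA per muscle cell cannot be told apart.

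Adults were compared with the 5th instar, across the final moult, after which grasshoppers have wings and working flight muscle. In adults miR-1-y averaged 13149.9 ± 2609.8 CPM, against 9769 ± 517 in the 5th instar (SD, n = 3 each), a log2 fold change of 0.43 ± 0.17 (SE), or 1.35-fold with a 95% interval of 1.05 to 1.73. edgeR's quasi-likelihood test gave an unadjusted p of 0.0248 and a Benjamini-Hochberg adjusted p of 0.296 over the 179 tested entries. miR-1-z was 1.34-fold as high (1.07 to 1.68), with a log2 fold change of 0.42 ± 0.15, an unadjusted p of 0.0156 and an adjusted p of 0.296. Both missed the adjusted threshold of 0.05, although the stages did not overlap for either. For miR-133-z the log2 fold change was 0.33 ± 0.17 (adjusted p = 0.472), and for miR-1-x it was 0.47 ± 0.29 (adjusted p = 0.485). Single libraries moved 3 of these values by over 1.5 times. Without adult library 1 the log2 fold change was 0.24 for miR-1-y, 0.19 for miR-133-z and 0.31 for miR-1-x. Without 5th instar library 1 it was 0.16 for miR-133-z and 0.23 for miR-1-x. That of miR-1-z lay between 0.36 and 0.42 whichever library was left out.
The study called an entry at an adjusted p under 0.05 with an absolute log2 fold change above 1. By this rule 0 of the 4 entries passed here by edgeR (2 at an unadjusted p under 0.05), against 2 of the 179 tested, or 1.12%. DESeq2 likewise called 0 of the 4 and 2 of 179 (1.12%). An unadjusted p under 0.05 was reached by 10.1% of tested entries. Adult libraries lay above those of the 5th instar for 3 of the 4 and for 8.94% of tested entries. All 4 had a positive log2 fold change, as did 58.1% of tested entries, with a median of 0.43 over the 4 and 0.079 over all tested.

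Adults were also set against the 3rd instar, the ends of the series. miR-1-y averaged 13149.9 ± 2609.8 CPM in adults, against 9817 ± 1381 in the 3rd instar, a log2 fold change of 0.42 ± 0.17 (1.34-fold, 95% interval 1.04 to 1.72; edgeR adjusted p = 0.104). miR-1-z averaged 165.7 ± 3.19 CPM in adults, against 126.9 ± 12.1 in the 3rd instar, with a log2 fold change of 0.39 ± 0.15 (adjusted p = 0.104). For miR-133-z the values were 324.4 ± 47.5 CPM in adults and 259.4 ± 7.79 in the 3rd instar (log2 fold change 0.32 ± 0.17, adjusted p = 0.198). The biggest estimate and the widest interval belonged to miR-1-x, at 28.7 ± 5.42 CPM in adults and 15.8 ± 1.52 in the 3rd instar. Its log2 fold change was 0.86 ± 0.29, or 1.81-fold with an interval of 1.17 to 2.80, an unadjusted p of 0.0120 and an adjusted p of 0.0861.
In this comparison 0 of the 4 passed the study's rule by edgeR (3 at an unadjusted p under 0.05), against 7 of 179 tested (3.91%). By DESeq2 it was 0 of the 4, against 15 of 179 (8.38%). With library totals in place of TMM factors miR-1-x passed it, at a log2 fold change of 1.06 and an adjusted p of 0.0442. That scaling moved the median of all tested entries by 0.18, and relative to the median miR-1-x stood 0.83 higher with totals and 0.81 higher with TMM factors. For all 4 entries the adult libraries lay above the 3rd instar libraries, as they did for 16.2% of tested entries. An unadjusted p under 0.05 was reached by 35.8% of tested entries. All 4 log2 fold changes were positive, as were 54.2% of those tested, with medians of 0.40 and 0.050. Without adult library 1 miR-1-y stood at 0.25 and miR-133-z at 0.20, while miR-1-z stood at 0.40 and miR-1-x at 0.72. Both adult comparisons use the same adult libraries, so their values are not independent of each other.

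The nymphal stages, 5th against 3rd instar, gave the smallest differences. miR-1-y averaged 9769 ± 517 CPM in the 5th instar, against 9817 ± 1381 in the 3rd, a log2 fold change of -0.0070 ± 0.17 with a 95% interval of -0.37 to 0.36 (edgeR adjusted p = 0.990). miR-133-z gave -0.0074 ± 0.17 (interval -0.37 to 0.36, adjusted p = 0.990) and miR-1-z -0.036 ± 0.15 (interval -0.36 to 0.29, adjusted p = 0.885). These sit at the median of all tested entries, 0.0036. With library totals alone the 3 log2 fold changes became 0.28, 0.29 and 0.25 in the same order, while the median of all tested entries moved by 0.29, so relative to the median they stayed at -0.012, -0.0084 and -0.045. miR-1-x averaged 20.5 ± 6.32 CPM in the 5th instar, against 15.8 ± 1.52 in the 3rd (log2 fold change 0.38 ± 0.29, adjusted p = 0.483). Its log2 fold change was 0.18 without 5th instar library 3, 0.62 without 5th instar library 1 and 0.69 with library totals, where it stood 0.40 above the median of all tested entries, against 0.38 with TMM factors.
By the study's rule 0 of the 4 were called by edgeR (0 also at an unadjusted p under 0.05), against 3 of 179 (1.68%). DESeq2 called 0 of the 4 as well, against 10 of 179 (5.59%). An unadjusted p under 0.05 was reached by 17.3% of tested entries, and 1 of the 4 log2 fold changes was positive, against 50.3% of those tested. A p that misses the threshold does not show equal levels. With TMM factors the 95% intervals of miR-1-y, miR-1-z and miR-133-z lay within -0.37 and 0.79 on the log2 scale in all 3 comparisons. That is short of a doubling in either direction, and for miR-1-x the intervals reached 1.49. The bound holds for this scaling alone. With library totals the log2 fold changes in adults against the 3rd instar were 0.62 for miR-1-y, 0.57 for miR-1-z and 0.51 for miR-133-z, and their intervals are not given here.

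**Figure D2:**
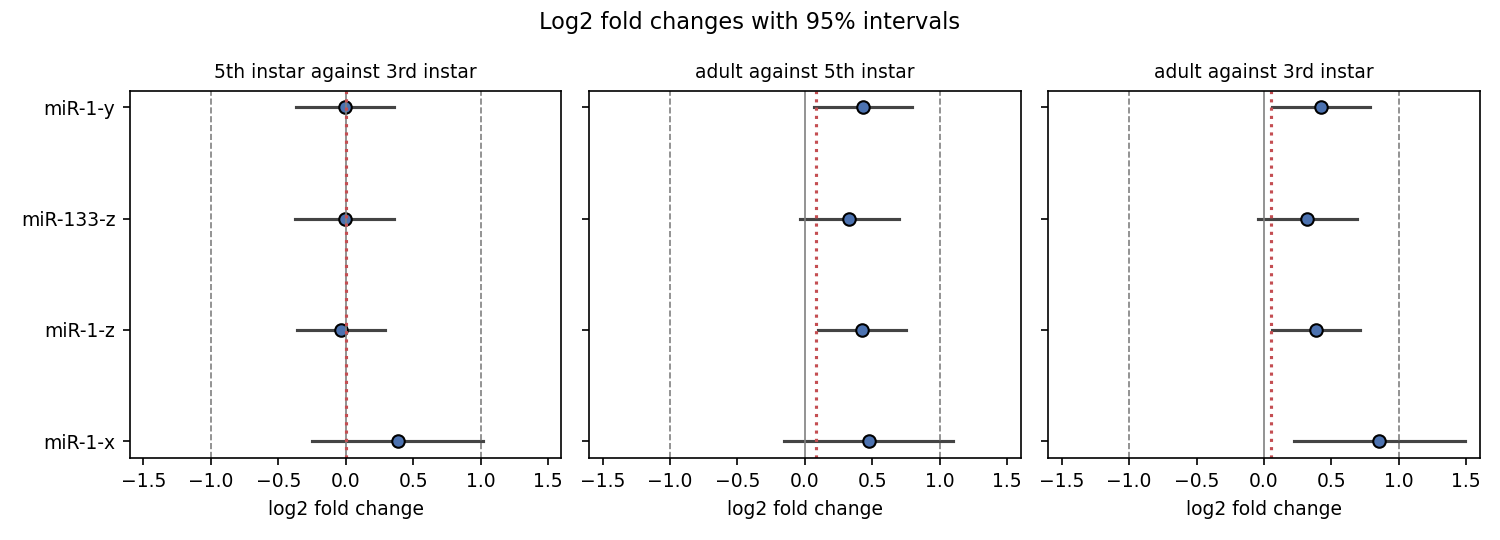
Log2 fold change (horizontal axes) of each entry in the 3 comparisons, as points with 95% intervals from edgeR's fit over all 9 libraries. The solid line marks 0, dashed lines the study's limit of 1 in either direction, and the dotted line the median of the 179 tested entries. All points lie inside the limit, and the points for adults against either nymphal stage lie to the right of the median.

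A test over all 3 stages at once gave adjusted p values of 0.173 for miR-1-y, 0.161 for miR-1-z, 0.272 for miR-133-z and 0.173 for miR-1-x (edgeR), so 0 of the 4 passed, against 8 of 179 tested entries (4.47%). At an unadjusted p under 0.05 there were 3 of the 4 and 24.6% of tested entries.

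Ratios of 2 entries within a library do not depend on the library total or on scaling factors, and they show whether the muscle miRNAs kept their proportions. The count of miR-133-z was 2.65%, 2.28% and 3.12% of that of miR-1-y in 3rd instar libraries, 2.35%, 2.82% and 2.73% in those of the 5th instar, and 2.34%, 2.67% and 2.43% in adults. The stages overlapped throughout, and the whole range over 9 libraries was 1.37-fold. An exact permutation test over the 1680 assignments of the libraries to stages gave p = 0.782 (0.968 after Benjamini-Hochberg adjustment over the 3 ratios tested). Without 3rd instar library 2 the exact p was 0.311. The means were 2.68% ± 0.418, 2.63% ± 0.249 and 2.48% ± 0.171 in stage order (SD, n = 3 each).

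The share of the variant miR-1-z relative to miR-1-y averaged 1.30% ± 0.0625, 1.27% ± 0.0644 and 1.29% ± 0.249 in stage order (SD, n = 3 per stage, exact permutation p = 0.968, also after adjustment). Both extremes were adult libraries, 1.01% in library 1 and 1.49% in library 2, so its spread in adults was wider than any difference between stages. Without adult library 1 the exact permutation p was 0.111. Library 1 is the adult library in which miR-1-y stood highest and miR-1-z did not.

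For miR-1-x the ratio to miR-1-y was 0.149%, 0.159% and 0.178% in 3rd instar libraries, 0.153%, 0.209% and 0.264% in those of the 5th instar, and 0.213%, 0.207% and 0.235% in those of adults. Adult ratios lay above those of the 3rd instar, and the 5th instar spanned both. The exact permutation test over the stages gave p = 0.186 (adjusted p = 0.557), where the design allows 0.00357 at the least. Without 5th instar library 1, in which miR-1-x had its fewest counts, the exact p was 0.0286. In 40 known families that have both an x and a y entry, the rarer entry had between 0.0277% and 97.2% of the counts of the more abundant one, with a median of 3.83%. The miR-1 pair stood at 0.200%, and 7 families were lower.

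**Figure D3:**
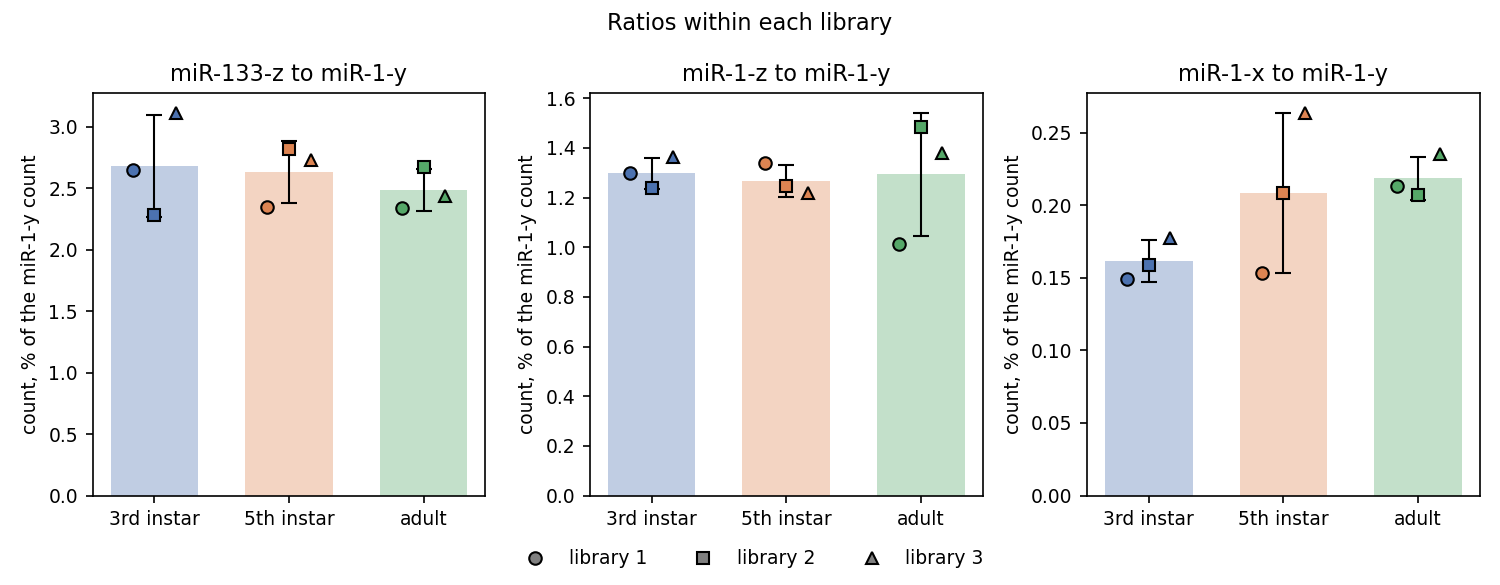
Counts of miR-133-z, miR-1-z and miR-1-x as a percentage of the miR-1-y count of the same library (vertical axes, from 0). Points are libraries, bars stage means and error bars SD (n = 3). For miR-133-z and miR-1-z the stages overlap, and for miR-1-x the adult points, 0.207% to 0.235%, lie above those of the 3rd instar, 0.149% to 0.178%.

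Over the 9 libraries, log2 levels of the 4 entries varied together to differing degrees. Pearson's r of miR-1-y was 0.84 with miR-133-z, 0.82 with miR-1-z and 0.81 with miR-1-x (Spearman's rho 0.73, 0.88 and 0.87), against a median r of 0.039 with the tested entries outside the 4. All entries of a library share its scaling, and stage differences enter these values. For deviations from the stage means r was 0.64, 0.48 and 0.65 in the same order. Without adult library 1 it was 0.58, 0.89 and 0.70. With the 2 libraries farthest from the median of miR-1-y left out, adult 1 and 3rd instar 3, it was 0.70, 0.88 and 0.65. Between miR-133-z and miR-1-z, r was 0.68 over the libraries and -0.053 for the deviations.
Among entries outside the 4, those most like miR-1-y were miR-125-z (r = 0.94), miR-3477-x (0.92), miR-277-y (0.90) and miR-216-z (0.88). The first belongs to a family processed with let-7 in flies, and miR-277 controls the breakdown of branched-chain amino acids there. These are descriptions over 9 libraries of entries picked for their likeness, so no test is given. With the same 2 libraries left out, r was 0.64, 0.50, 0.77 and 0.39 in the same order, so for miR-3477-x and miR-216-z the likeness rested largely on these libraries. Entries most like miR-133-z were miR-277-y (r = 0.86), miR-283-z (0.81), miR-3477-x (0.79) and miR-12-z (0.75), and without adult library 1 these were 0.69, 0.58, 0.37 and 0.22. miR-277-y itself averaged 1717 ± 112, 1971.5 ± 240.4 and 4276 ± 1330.2 normalised CPM in stage order (SD, n = 3 each), a steeper pattern than that of either muscle miRNA.

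**Figure D4:**
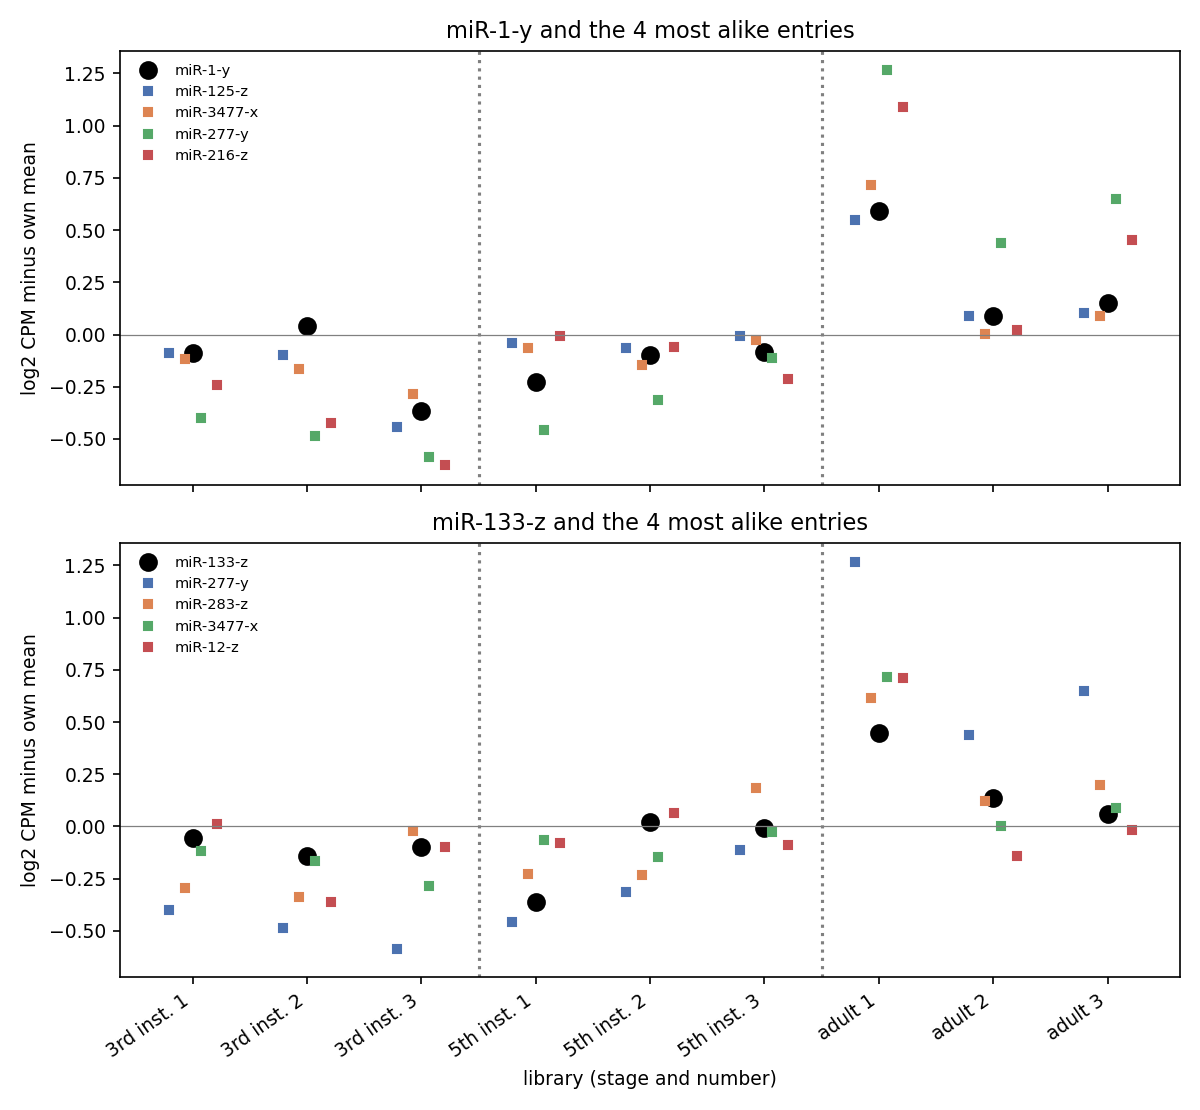
Log2 CPM minus each entry's own mean (vertical axes) in the 9 libraries (horizontal axis, dotted lines between stages) for miR-1-y and miR-133-z (black circles) and the 4 entries most like each (coloured squares). Adult library 1 is the highest for both muscle miRNAs and for their companions, and miR-277-y, with r of 0.90 and 0.86, spans a wider range than either.

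Most tested entries of other miRNAs tied to muscle in flies or vertebrates had negative log2 fold changes. The list, chosen by family number, held 16 families including miR-1 and miR-133, and apart from the 4 entries it had 11 entries in the table, 7 of them tested. The 7 came from the miR-9, miR-92, miR-143 and miR-313 families, so several share a family and are not separate cases. Of the entries too low to be tested, miR-311-x went the other way. It had 0 counts in every nymphal library and 7, 6 and 4 in adult libraries 1 to 3. miR-145-x had 0 to 5 counts per library, the most in 3rd instar library 3. The rest of the untested entries were miR-133-y and miR-206-y, given above. In adults against the 3rd instar 1 of the 7 had a positive log2 fold change, with a median of -0.46. Over all tested entries 54.2% were positive, with a median of 0.050. In adults against the 5th instar it was 1 of 7 (median -0.052), against 58.1% of all tested entries. For the 5th against the 3rd instar it was 1 of 7 (median -0.27), against 50.3%. miR-9-z, of a family that limits flight muscle and sense organ genes in flies, was lower in adults in both comparisons at an adjusted p under 0.05, though within the fold limit. That p was reached by 1.68% of tested entries against the 5th instar and by 7.82% against the 3rd, and by 0 of the 4 miR-1 and miR-133 entries. The other tested miR-9 entries had smaller values. The log2 fold change of miR-9-x was -0.052 in adults against the 5th instar and -0.30 against the 3rd (edgeR adjusted p = 0.950 and 0.225), and that of miR-9-y was -0.016 and 0.0052 (adjusted p = 0.989 and 0.987). miR-9-z averaged 6302 ± 626 CPM for the 3rd instar, 5242 ± 289 for the 5th instar and 3261 ± 169.8 for adults. Its log2 fold change was -0.68 ± 0.13 in adults against the 5th instar (edgeR adjusted p = 0.0151) and -0.95 ± 0.13 against the 3rd instar (adjusted p = 0.000626). miR-143-y, named for a smooth muscle miRNA of vertebrates, averaged 19.5 ± 7.31 CPM in adults, against 115.6 ± 75.2 in the 3rd instar (log2 fold change -2.56 ± 0.70, adjusted p = 0.0710). Its 3rd instar libraries ranged from 29.5 to 168 CPM. The miR-143 family was also listed for vertebrate blood or smooth muscle, which food or handling could bring in.

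Markers of other tissues were read beside these values. The neuron list (miR-124, miR-137, miR-7 and miR-219) had 6 entries, 3 of them tested. Its summed level was 105.9 to 109.7 CPM for the 3rd instar, 79.0 to 86.8 for the 5th instar and 72.1 to 90.6 for adults. A positive log2 fold change was found for 2 of 3 in adults against the 5th instar (median 0.027), 0 of 3 in adults against the 3rd instar (median -0.44) and 0 of 3 in the 5th against the 3rd instar (median -0.42). The defining neuronal entry, miR-124-y, was at 4.40 ± 1.68 CPM for the 3rd instar, 2.00 ± 0.916 for the 5th instar and 3.05 ± 1.56 for adults. These levels rest on 2 to 17 counts per library. In 5th instar library 2 and adult library 1 the 2 counts lay under the floor of 3. The ovary list (miR-989 and miR-184) was represented by miR-184 alone, and whether its level reflects ovary was not tested. Its sum was 4057 to 5568 CPM for the 3rd instar, 3661 to 4521 for the 5th instar and 4408 to 5323 for adults. Of its 3 tested entries, 2 had a positive log2 fold change in adults against the 5th instar (median 0.26), 3 in adults against the 3rd instar (median 0.076) and 1 in the 5th against the 3rd instar (median -0.22). One of them, miR-184-z, was 1.34-fold as high in adults as in the 5th instar, at 28.5 ± 1.13 and 21.2 ± 0.535 CPM with no overlap (edgeR adjusted p = 0.472), the fold found for miR-1-z. miR-184-x went the other way, at 23.1 ± 3.09 CPM in adults and 29.7 ± 1.53 in the 5th instar. Its log2 fold change was -0.37 (edgeR adjusted p = 0.485), also with no overlap. For miR-184-y, at 4844 ± 456 CPM in adults and 4043 ± 429 in the 5th instar, these stages overlapped. The summed level of the 4 muscle entries was 8706 to 11444 CPM for the 3rd instar, 9529 to 10547 for the 5th instar and 11898 to 16726 for adults. The part of tissue make-up in the values of miR-1 and miR-133 was not tested.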

How the data were processed

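Small RNA cut from a gel (15 to 30 nt) was ligated to adapters, amplified and sequenced on an Illumina HiSeq instrument, per the labels' protocols. The aligner, the counting tool and the reference: not given in the sources used here. The deposited table holds raw read counts per miRNA entry and library, per the file headers. The authors' TPM values are counts scaled by a library total, with 0.01 in place of 0, which was checked on the table. They served one alternative and the library totals they imply. The x, y and z endings are kept as written; their meaning is not given.

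Counts were tested with edgeR 4.0.16 (robust quasi-likelihood fit, group means over 9 libraries, TMM factors, expression filter by stage) in R 4.3.3, with Benjamini-Hochberg adjustment over 179 entries. Each standard error is the size of the log2 fold change over the root of its F statistic, and intervals use the test's degrees of freedom. Log2 levels used a prior count of 2. Ratios, with 0.5 added to each count, were tested by exact permutation (statistic: sum of squares between stages, with no direction). Hybridisation used RNAduplex 2.7.2. The procedures were tested on simulated data. Entries named outside the 4 are those sharing a seed or nested, the 4 most correlated with miR-1-y and with miR-133-z, and the muscle list's 3 with the smallest p over the stages (miR-1-z among them). The other miR-9 entries, miR-7-x, miR-124-y, miR-145-x, miR-311-x and the miR-184 entries were named after their values were seen. Members, lists and rules were chosen with earlier results of these data known. Alternatives were DESeq2 1.42.0 and those in the closing section. Summing miR-1-y with miR-1-z was chosen after seeing the data.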

Additional observations from a re-analysis of the deposited data

How the results depend on the processing

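The 5th against 3rd instar log2 fold changes near 0 changed sign most easily. With library totals without factors they were 0.28 for miR-1-y, 0.25 for miR-1-z and 0.29 for miR-133-z, and with totals implied by TPM 0.28, 0.25 and 0.28. With only the 2 stages compared miR-1-y was at 0.022 and miR-133-z at 0.018, and with identical sequences summed at 0.0095 and 0.0068. Leaving out each library in turn gave -0.079 to 0.083 for miR-1-y, -0.079 to 0.034 for miR-1-z, -0.040 to 0.14 for miR-133-z and 0.18 to 0.62 for miR-1-x, and 0.23 to 0.70 for miR-1-x in adults against the 5th instar. Adults against the 3rd instar, miR-1-x passed with library totals (1.06, adjusted p = 0.0442) and with totals implied by TPM (1.06, adjusted p = 0.0437), and its adjusted p over all alternatives was 0.0437 to 0.178. Without adult library 1 the log2 fold change of miR-1-y was 0.25 against the 3rd and 0.24 against the 5th instar, and that of miR-133-z 0.20 and 0.19. All log2 fold changes computed for the 4 in both adult comparisons stayed positive; miR-1-z has none where it was summed with miR-1-y. The ratio of miR-1-x to miR-1-y had exact p values of 0.0286 (without 5th instar library 1) to 0.368 when each library was left out, against 0.111 to 1 for miR-1-z and 0.311 to 0.946 for miR-133-z.

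Over all entries, 3 were called in the 5th against the 3rd instar (1 higher, 2 lower), 1 with library totals, totals implied by TPM or known entries only, 10 with DESeq2, and 1 to 3 with each library left out (1 if the one left out was 5th instar 1, 5th instar 3 or 3rd instar 3). In adults against the 5th instar 2 were called (1 higher, 1 lower), 1 (lower) with either total, 0 with only these stages, and 0 to 2 with each library left out (0 without 5th instar 1, 5th instar 2 or adult 3, 1 without adult 1). In adults against the 3rd instar 7 were called (4 higher, 3 lower), 19 (16 higher, 3 lower) with either total, 14 without the fold limit, 15 with DESeq2, and 3 to 9 with each library left out (3 without 3rd instar 1 or 3rd instar 3). The cause of these differences was not tested.

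Replicate numbers were shared across stages. Deviations of same-numbered libraries correlated at -0.23 to 0.42, and those of differently numbered libraries at -0.43 to 0.28. These ranges overlap and do not settle whether the numbers pair the samples. With the replicate number as a block, 2, 2 and 7 entries were called in the 3 comparisons in the order above, and miR-1-y in the 5th against the 3rd instar had a log2 fold change of 0.0028. The block changed no other sign or call of the 4. Depth limits miR-1-x the most, at 29 to 129 counts.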
